A study of Mus musculus with 20 samples.

Results

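Replication-dependent histone genes encode the linker histone H1 and the core histones H2A, H2B, H3 and H4, which package newly copied DNA. Their main mRNAs carry no poly(A) tail and end just after a conserved stem-loop, which is bound by the stem-loop binding protein SLBP and guides cleavage by the U7 small nuclear ribonucleoprotein. These mRNAs accumulate in S phase and are degraded when DNA synthesis stops, and some of the genes can also give longer, polyadenylated transcripts in cells that have left the cycle. Members were all mouse genes in the histone clusters, whose older symbols begin with Hist1h, Hist2h, Hist3h or Hist4h. RefSeq (GRCm38.p6) lists 71 of them, and 69 had a gene model among the 36528 models of the series. Of the 69, 12 reached 10 or more counts in 5 or more of the 20 libraries, a level that 15476 of all models reached. The 12 were the H1 genes H1f2, H1f3, H1f4 and H1f5, the H2A gene H2aw, the H2B genes H2bc4, H2bc6 and H2bc21, the H3 gene H3c14, and the H4 genes H4c4, H4c9 and H4f16. H1f5 lay just inside the level, with 10 or more counts in 5 libraries, and H2bu2 just outside, with 4. For H1f5 these were all control libraries: macrophage controls 1, 2, 3 and 5 and monocyte control 4.

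The libraries came from macrophages and monocytes sorted out of tumours of MC38, a mouse colon carcinoma cell line, and each group held 5 libraries: macrophages of control tumours, macrophages of tumours treated with aPDL1 (an antibody to the checkpoint ligand PD-L1), monocytes of control tumours, and monocytes of aPDL1-treated tumours. RNA was taken 7 days after treatment began. Mouse strain, age, antibody dose, the control treatment and the sorting gates were not given in the sources used here, nor whether each library of a group had its own animal, and a p-value therefore reflects only how far apart the deposited libraries lie, a spread that can be technical. All control libraries carried lower sample numbers than all treated ones, so treatment and the order of the sample numbers cannot be told apart. The sorted types were checked against their defining markers: 8 of 8 monocyte markers were higher in monocytes and 8 of 10 macrophage markers were higher in macrophages, in both treatments, while 6 of 6 tested neutrophil markers were also higher in monocytes. Libraries held 30191509 to 36514133 counts. In bulk samples, fewer cells of a type and less RNA per cell cannot be told apart.

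The stem-loop is shown for 6 of the 12 genes because the part of a transcript that lies beyond it separates the long, polyadenylated form from the short one. Capitals mark the stem-loop as found by searching the annotated transcripts (GENCODE vM21, GRCm38) on the sense strand for a hairpin that starts with GG and ends with CC, with 6 paired bases on each side of a loop of 4 that starts with TT. All 6 lie in annotated 3' UTRs: H1f2 at chr13:23739512-23739527 (plus strand), H1f3 at chr13:23555787-23555802 (plus), H2aw at chr11:58955172-58955187 (plus), H3c14 at chr3:96247327-96247342 (plus), H4c4 at chr13:23581950-23581965 (plus) and H4c9 at chr13:22040966-22040981 (minus), each read 5' to 3'.
H1f2: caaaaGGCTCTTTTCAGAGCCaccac
H1f3: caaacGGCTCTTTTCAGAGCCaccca
H2aw: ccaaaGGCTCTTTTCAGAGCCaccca
H3c14: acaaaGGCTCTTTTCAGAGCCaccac
H4c4: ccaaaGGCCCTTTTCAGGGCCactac
H4c9: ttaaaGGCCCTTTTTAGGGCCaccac
The H1, H2A and H3 genes shown share 1 core, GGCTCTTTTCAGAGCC, which 25 of the 69 members carried. H4c4 carried the core of 7 H4 genes, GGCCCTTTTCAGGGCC, and H4c9 the variant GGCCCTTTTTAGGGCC, found in 2. A stem-loop was found in 43 of 68 members with an annotated transcript (63.2%) and in 670 of 55450 genes (1.21%).

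Beyond the stem-loop, the 12 genes above the count level differed from the rest in annotation. In the 9 of them with a match, the annotated transcript ran on for 330 to 4884 bases, with a median of 1167. In the 34 other members with a match it ran on for a median of 46 bases, and 9 of these 34 ran on for 300 or more. No match was found in the annotated transcripts of H1f5, H2bc4 and H2bc21. For H1f5 (minus strand) the annotated transcript stopped at 21779883, short of the RefSeq end at 21779832, so the last bases were not searched. A missing match is therefore not evidence that a gene lacks the stem-loop. The length of each gene model used for counting was not given, but dividing counts by the deposited RPKM values implied a median of 1878 bases for the 12 and 411 bases for 50 of the others. H1f2, for example, had an implied 1561 bases against a RefSeq span of 725, and its transcript ran 840 bases past the stem-loop. H4c4, in contrast, had an implied 312 bases against an annotated transcript of 1138, 770 of them past the stem-loop. For such genes the annotated bases past the stem-loop need not have been counted. A longer model holds more bases to count, so model length and transcript form cannot be told apart here.

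**Figure D1:**
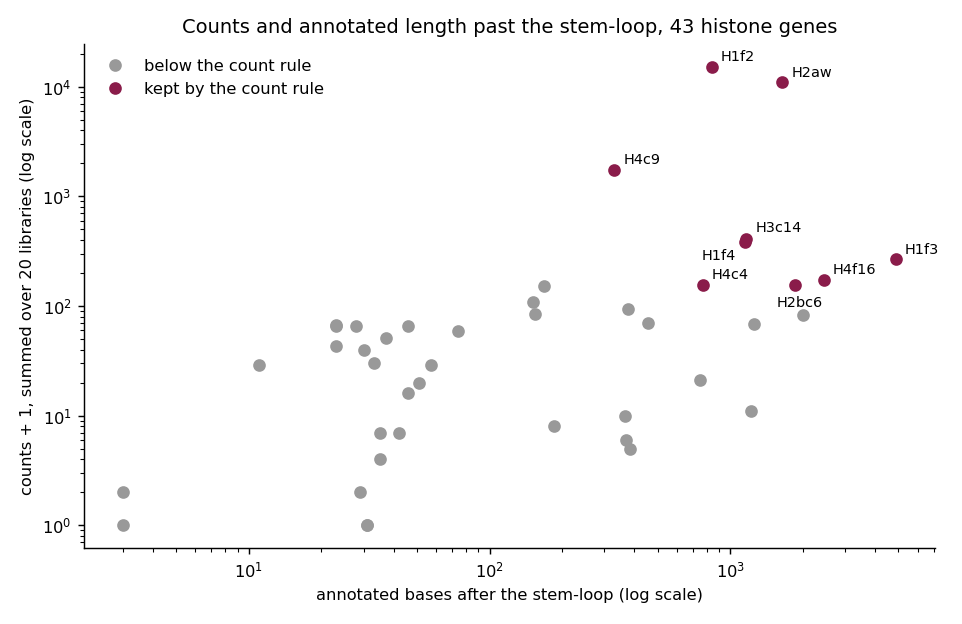
Each point is 1 of the 43 histone genes with a stem-loop in an annotated transcript. The x axis gives the annotated bases after the stem-loop and the y axis the counts summed over 20 libraries plus 1, both on log scales. The 9 kept genes, named, lie at 330 bases or more, and the other 34 have a median of 46. The gene models that were counted can be shorter than the annotated transcripts (H4c4: 312 implied bases against 1138).

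Promoters are shown for 4 genes that differ in class and in response: H1f2, the most abundant, H1f5 and H4c9, lower after treatment in monocytes, and H2aw, higher. Each run holds the 170 bases before the RefSeq start on GRCm38.p6: H1f2 chr13:23738637-23738806 (plus strand), H1f5 chr13:21780626-21780795 (minus), H4c9 chr13:22041363-22041532 (minus) and H2aw chr11:58954515-58954684 (plus). Capitals mark the motifs searched on both strands. These were the octamer of H2A and H2B promoters, spelled ATTTGCAT, the box spelled CCAAT, the box of H1 promoters (the H1 box), spelled AAACACA, and the core promoter element spelled TATAAA.
H1f2: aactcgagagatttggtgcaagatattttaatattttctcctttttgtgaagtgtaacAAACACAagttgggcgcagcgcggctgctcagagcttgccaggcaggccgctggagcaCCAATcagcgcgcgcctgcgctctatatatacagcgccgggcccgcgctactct
H1f5: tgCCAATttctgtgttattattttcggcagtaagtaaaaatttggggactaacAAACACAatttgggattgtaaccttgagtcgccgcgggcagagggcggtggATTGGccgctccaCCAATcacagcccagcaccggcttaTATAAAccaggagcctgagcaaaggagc
H4c9: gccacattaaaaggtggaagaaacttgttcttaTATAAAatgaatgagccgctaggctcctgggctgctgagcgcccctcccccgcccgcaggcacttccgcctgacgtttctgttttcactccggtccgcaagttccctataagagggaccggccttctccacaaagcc
H2aw: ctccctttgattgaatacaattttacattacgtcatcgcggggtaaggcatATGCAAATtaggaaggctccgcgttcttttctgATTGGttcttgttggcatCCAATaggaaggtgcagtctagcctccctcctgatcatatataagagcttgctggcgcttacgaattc
The H1f2 and H1f5 runs share the H1 box followed by a CCAAT, and H2aw alone of the 4 has the octamer. Position was not part of the search. The TATAAA marked in H4c9 begins at -137 from the RefSeq start, and that in H1f5 at -28. The H4c9 match is thus not shown to be a core promoter element. Over windows of 300 bases around the start, RefSeq had entries for 62 members (63 windows), 10 of them among the 12 kept genes. The octamer was in 14 of the 63 windows (22.2%; 7 of 18 H2A and 7 of 17 H2B windows) and in 1.74% of all 32851 promoter windows. CCAAT was in 85.7% against 37.4%, TATAAA in 55.6% against 13.6%, and the H1 box in 5 of 6 H1 windows against 7.18% of all windows. A match is a run of letters, not evidence of binding.

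Histone transcripts were scarce. The 69 models together took 0.00378% to 0.00923% of the counts of a library, and a few genes took nearly all of these. H1f2 held 40.0% of the 37728 histone counts in the 20 libraries, H2aw 29.1%, H2bc4 9.43%, H2bc21 7.76% and H4c9 4.63%. The 57 genes below the level held 4.61% in all, 30 to 185 counts per library, and 7 of them had 0 counts in every library. The protocol named a stranded total RNA kit, with 0.1 ug of total RNA per library, while the molecule label named poly(A) RNA. How far the library method limited counts of the tailless mRNA was not tested. Per length, in the authors' RPKM values (mean over 20 libraries), H1f2 stood highest at 13.6, then H2aw at 8.09, H2bc4 at 6.37, H4c9 at 4.53 and H2bc21 at 1.595. The other 7 genes lay between 0.0864 (H4f16) and 0.689 (H4c4). For comparison, replacement histone genes reached 196 RPKM for H3f3b, 41.0 for H1f0, 10.2 for H2az1 and 8.63 for H3f3a. These genes are transcribed through the cell cycle and yield polyadenylated mRNA. H2ax, kept in the same list, was at 23.3 RPKM.

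**Figure D2:**
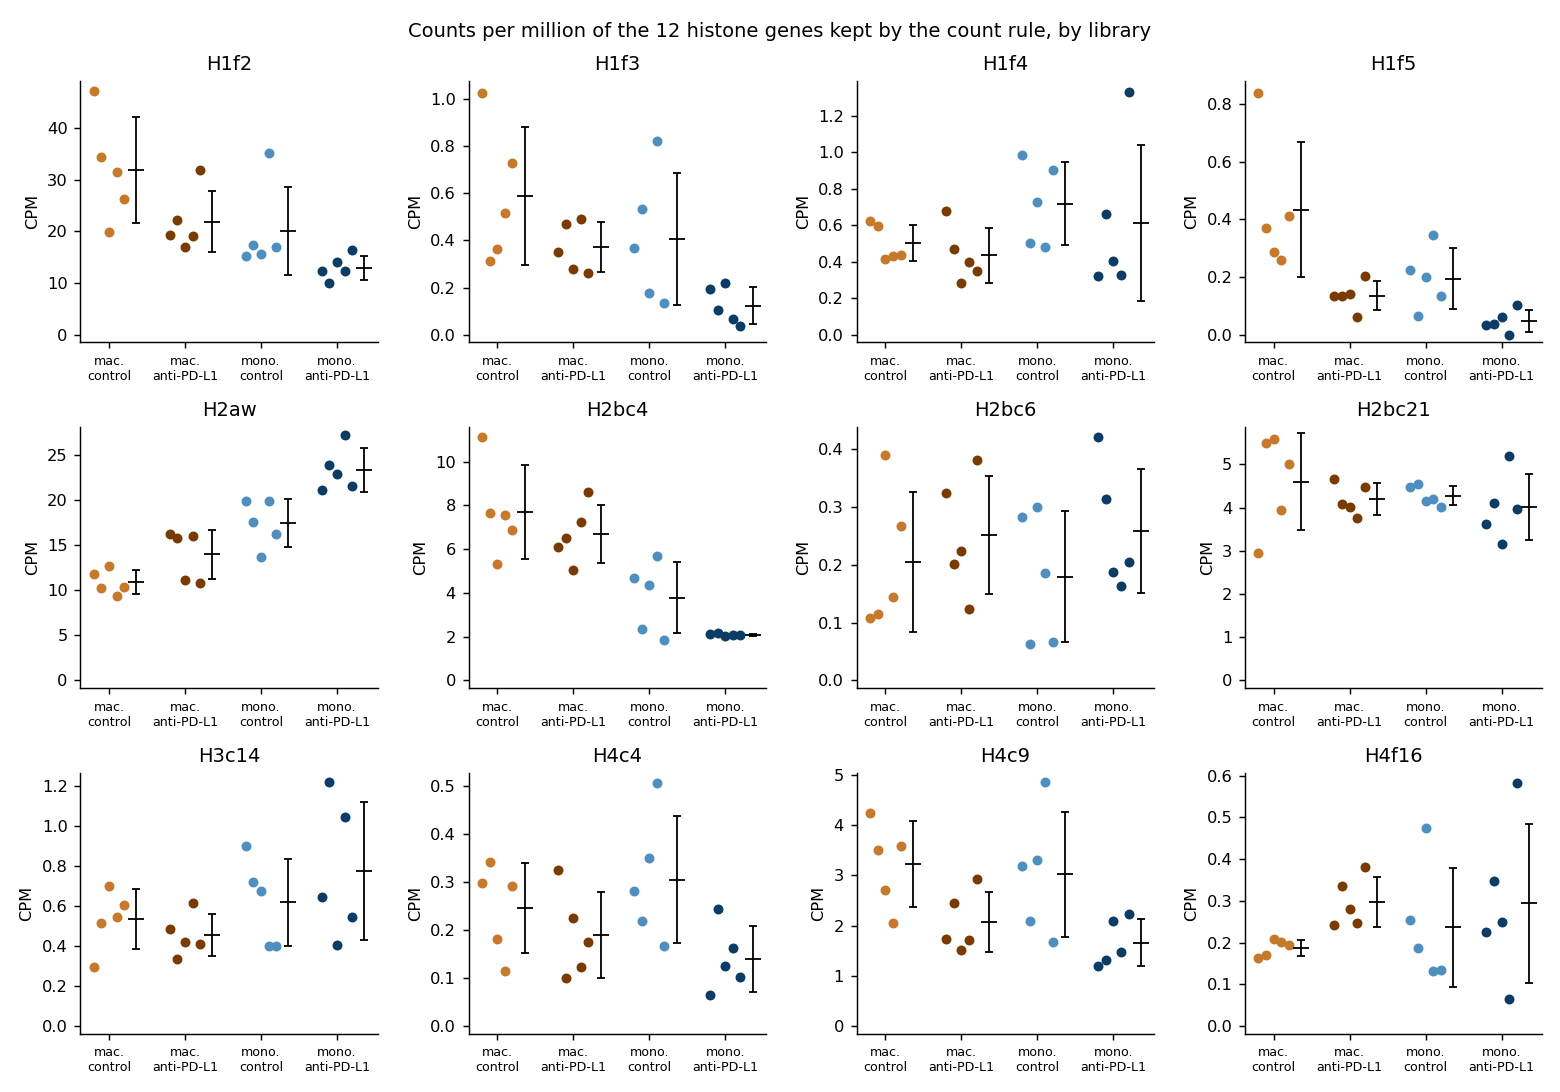
Each panel is 1 histone gene and each point 1 library, with CPM, the counts scaled to library size, on the y axis and the 4 groups on the x axis; the bars give the mean and SD of 5 libraries. H1f2 and H2bc4 were higher in macrophages than in monocytes, H2aw was lower, and H2aw rose in treated monocytes.

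In monocytes, anti-PD-L1 was followed by lower levels of 4 histone genes and a higher level of 1. Levels here are CPM on library sizes scaled by TMM, and a gene was called when its adjusted p (edgeR quasi-likelihood test, Benjamini-Hochberg over 15390 genes) was under 0.05. Of the 11 histone genes that passed the filter on low counts, 5 were called, against 25.3% of all genes tested. H1f5, H1f3, H4c9 and H2bc4 fell (15.4% of all genes fell) and H2aw rose (9.92% rose). All 5 treated libraries stood below all 5 controls for 0 of these 4 falling genes, a separation seen in 2.13% of all genes. At an unadjusted p under 0.05, 7 of 11 passed, against 38.4% of all genes. The median log2 fold change of the 11 was -0.63 and that of all genes 0.02. Without monocyte control 4, which was highest for 7 of the 12 genes, only H2aw was still called (1 gene, against 14.3% of all genes). DESeq2 called 6 of 11, the 5 and H1f2, against 28.2% of all genes, and limma-voom called 2, H1f5 and H2aw, against 18.1%. With libraries of neighbouring sample numbers as a block, which was fitted in limma-voom, 3 were called, H1f5, H4c9 and H2aw, against 21.4%, so the block added H4c9 to the limma-voom calls.

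The largest decreases in monocytes were those of the H1 genes H1f5 and H1f3, while the other 2 tested H1 genes, H1f2 and H1f4, did not pass. H1f5 (Entrez 56702, chromosome 13, 21779832 to 21780625), a linker histone that compacts chromatin between nucleosomes, was at 0.225, 0.0627, 0.20003, 0.345 and 0.134 CPM in control monocytes and at 0.0324, 0.0349, 0.0624, 0 and 0.103 CPM in treated ones. Control 2 fell within the treated range, and the other 4 controls stood above all treated libraries. The log2 fold change was -2.0 (SE 0.59, adjusted p = 0.0206 by edgeR), and without monocyte control 4 it was -1.70 (adjusted p = 0.0666). These are low counts, as 1 read equals 0.0243 to 0.0349 CPM. H1f5 also met the count level only in control libraries, so its membership was not independent of its fall. H1f3 (Entrez 14957, chromosome 13, 23555032 to 23555807), another linker histone, was at 0.366, 0.533, 0.175, 0.824 and 0.134 CPM in controls and at 0.194, 0.105, 0.219, 0.0653 and 0.0342 CPM in treated monocytes. Controls 3 and 5 overlapped the treated libraries, and controls 1, 2 and 4 were above them. Its log2 fold change was -1.68 (SE 0.53, adjusted p = 0.0271 by edgeR). The edgeR call of H1f3 was lost without monocyte control 4 (adjusted p = 0.104) and without treated monocyte 2, 4 or 5 (0.0605, 0.0661 and 0.0577). It was also lost with limma-voom, both without the block (adjusted p = 0.0731) and with it (0.105).

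H1f2 (Entrez 50708, chromosome 13, 23738807 to 23739531), the most abundant histone gene here, did not pass in monocytes with edgeR and passed with DESeq2 (log2 fold change -0.62, DESeq2 adjusted p = 0.0484). It was at 15.2, 17.3, 15.7, 35.2 and 16.9 CPM in controls and at 12.2, 9.97, 13.98, 12.4 and 16.3 CPM in treated monocytes. Control 4 stood far above the other controls, and treated library 5 alone reached the control range. The log2 fold change was -0.63 (SE 0.25, adjusted p = 0.0692), -0.33 without the pair of neighbouring libraries macrophage control 1 and monocyte control 4 (adjusted p = 0.216), and -0.70 without monocyte control 5, where it passed with edgeR too (edgeR adjusted p = 0.0450). H1f4, at 0.719 ± 0.229 CPM in control and 0.611 ± 0.428 in treated libraries (SD, n = 5), did not pass either.

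Among the core histone genes, H2bc4, H4c9 and H2aw were called. H2bc4 (Entrez 68024, chromosome 13, 23684199 to 23692480), an H2B gene, was at 4.68, 2.35, 4.35, 5.69 and 1.84 CPM in control monocytes and at 2.10, 2.16, 2.03, 2.06 and 2.09 CPM in treated ones. Treated libraries were nearly alike, controls 1 to 4 were above them, control 2 only slightly, and control 5 was below. The log2 fold change was -0.86 (SE 0.26, adjusted p = 0.0215). Without monocyte control 1, 3 or 4 the edgeR adjusted p of H2bc4 was 0.0520, 0.0593 or 0.0717, and with limma-voom it was 0.0846 without the block and 0.127 with it.

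H4c9 (Entrez 319158, chromosome 13, 22040960 to 22041362), an H4 gene, was at 3.18, 2.10, 3.30, 4.86 and 1.67 CPM in control monocytes and at 1.20, 1.33, 2.09, 1.47 and 2.22 CPM in treated ones. Controls 1, 3 and 4 were above all treated libraries and controls 2 and 5 were among them. The log2 fold change was -0.86 (SE 0.29, adjusted p = 0.0333). Leaving out monocyte control 1, 3 or 4 gave edgeR adjusted p-values of 0.0595, 0.0756 and 0.125, and leaving out treated monocyte 1, 2 or 4 gave 0.0815, 0.0794 and 0.0743. With limma-voom and no block the adjusted p of H4c9 was 0.0590. H4c4, another H4 gene, averaged 0.305 ± 0.131 CPM in control and 0.140 ± 0.0683 CPM in treated monocytes (SD, n = 5) and did not pass (log2 fold change -1.12, SE 0.43, adjusted p = 0.0609). H4c4 passed without monocyte control 5 (edgeR adjusted p = 0.0290) and without treated monocyte 2 (0.0445).

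H2aw (Entrez 319162, chromosome 11, 58954685 to 58955192), the H2A gene of the small Hist3 cluster, moved the other way. It was at 19.9, 17.6, 13.7, 19.9 and 16.2 CPM in control monocytes and at 21.2, 23.9, 22.9, 27.2 and 21.6 CPM in treated ones. All 5 treated libraries stood above all 5 controls, as they did for 5.09% of all genes tested. It rose by a log2 fold change of 0.42 (SE 0.14, adjusted p = 0.0301). Without monocyte control 3 or 5 the edgeR adjusted p was 0.0940 or 0.0547, and without treated monocyte 2 or 4 it was 0.0735 or 0.0825. The H2aw transcript overlaps Trim17 on the same strand, and 31.5% of its 50-base windows also occur in transcripts of other genes, so its counts are uncertain. The shares were similar for H2bc4 (30.6%) and H4c9 (28.9%), which fell, lower for H1f2 (8.54%) and H1f3 (2.25%), and 0% for H1f5. Trim17 itself was below 1 CPM in every library and was not called.

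The other H2B and H3 genes were not called in monocytes. H2bc21, an H2B gene of the Hist2 cluster, had a level of 4.28 ± 0.227 CPM in controls and 4.01 ± 0.756 in treated libraries. H3c14 went from 0.619 ± 0.218 to 0.773 ± 0.345 CPM and H2bc6 from 0.179 ± 0.113 to 0.258 ± 0.108 CPM (SD, n = 5). Every 50-base window of the H3c14 transcript occurs in another gene's transcript. Among these genes are Gm20634, which overlaps H3c14 on the same strand, and also H3c15 and H3c13. The counts are of uniquely aligned reads, and how reads in overlapping gene models were assigned was not stated. The H3c14 counts are therefore uncertain. H2bc6 shares exonic sequence with the overlapping gene H1f4. H2bc6 and H4f16, the third H4 gene, are named outside the rule for named genes. H4f16 passed the count level but not filterByExpr, the filter of the edgeR fit, and had group means of 0.188 to 0.297 CPM. With the count level as the filter, edgeR tested it and did not call it (log2 fold change 0.29, adjusted p = 0.658 in monocytes and 0.65, adjusted p = 0.394 in macrophages).

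In macrophages, 0 of the 11 histone genes were called after anti-PD-L1 by edgeR, against 4.65% of all genes (1.73% higher and 2.92% lower). That share itself was unstable: it was 12.2% with DESeq2, 1.24% with limma-voom, and 0.0898% to 12.4% with 1 library left out (lowest without treated macrophage 4 and highest without macrophage control 4). At an unadjusted p under 0.05, 4 of 11 passed, against 23.5% of all genes: H1f5, H1f2 and H4c9, all lower, and H2aw, higher. DESeq2 called 1 of 11, H1f5. The median log2 fold change of the 11 was -0.23 and that of all genes -0.01. H1f5 was at 0.839, 0.370, 0.286, 0.259 and 0.413 CPM in control macrophages and at 0.135, 0.134, 0.140, 0.0615 and 0.205 CPM in treated ones. All 5 treated libraries were below all 5 controls, as for 2.83% of genes tested, with control 1 far above the rest. H1f5 thus had a log2 fold change of -1.65 (SE 0.48, adjusted p = 0.0518 by edgeR). Here too, it met the count level only in control libraries, so this separation was not independent of its membership. Leaving out macrophage control 4, monocyte control 4, monocyte control 5 or treated monocyte 3 brought the edgeR adjusted p of H1f5 to 0.0290, 0.0473, 0.0380 or 0.0499.

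H1f2 was at 47.3, 34.4, 19.9, 31.6 and 26.2 CPM in control macrophages and at 19.3, 22.3, 17.0, 19.03 and 31.9 CPM in treated ones. Control 1 was the highest of the 10 and treated libraries 2 and 5 lay among the controls. This gave a log2 fold change of -0.54 (SE 0.25, adjusted p = 0.186). H4c9 had a log2 fold change of -0.64 (SE 0.28, adjusted p = 0.175), and H2aw one of 0.36 (SE 0.14, adjusted p = 0.112). H2aw was at 10.9 ± 1.32 CPM in control and 13.98 ± 2.75 CPM in treated macrophages (SD, n = 5), with treated libraries 3 and 5 among the controls, so that H2aw was not among the 4.11% of genes with all treated macrophages above all controls.

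**Figure D3:**
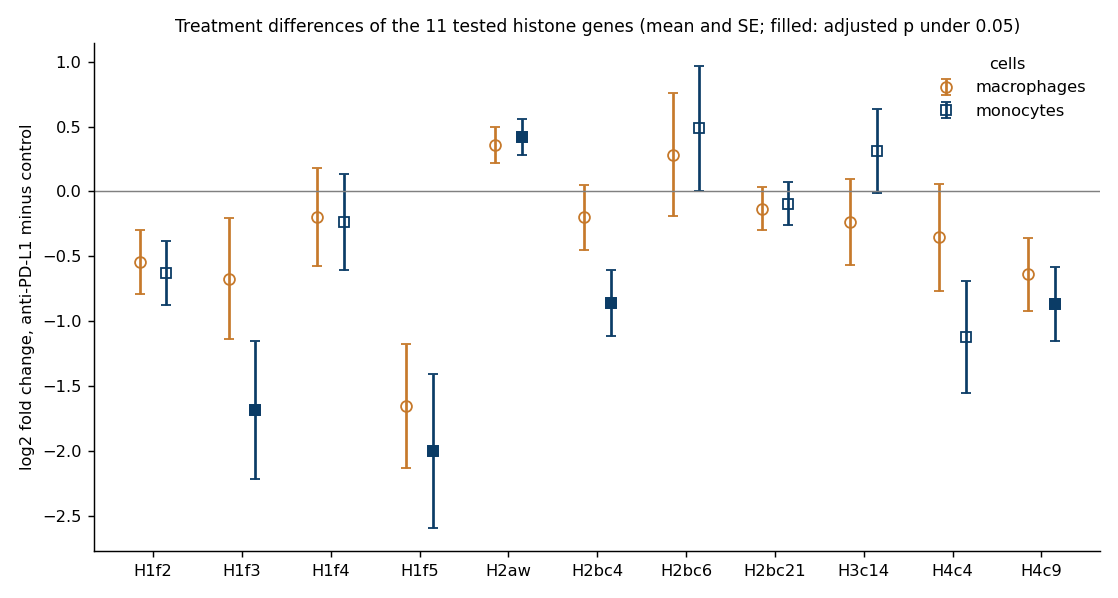
The x axis names the 11 tested histone genes and the y axis gives the log2 fold change of anti-PD-L1 minus control with its SE, for macrophages (circles) and monocytes (squares). Filled symbols passed an adjusted p of 0.05: H1f3, H1f5, H2aw, H2bc4 and H4c9 in monocytes.

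The effects in monocytes and macrophages were not shown to differ. The test of the difference between the treatment effects called 0 of the 11 genes by edgeR and 0% of all genes, 0 of the 11 at an unadjusted p under 0.05 (6.37% of all genes), and 0 with DESeq2 or limma-voom. The difference was widest for H1f3, at -1.01 (SE 0.70), and H4c4, at -0.77 (SE 0.60), both more negative in monocytes. For H1f2 and H2aw it was -0.09 (SE 0.35) and 0.06 (SE 0.19).

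Between the cell types, H2bc4 and H1f2 differed in the opposite direction to H2aw, and the other abundant genes, H2bc21 and H4c9, were not called. In control tumours 3 of the 11 genes were called, against 44.1% of all genes: H2bc4 and H1f2 were higher in macrophages (24% of genes were) and H2aw was lower (20% were). With unadjusted p-values under 0.05 the count was 4 of 11, against 50.7% of all genes. H2bc4 was at 11.1, 7.64, 5.31, 7.58 and 6.85 CPM in control macrophages, above all control monocytes except that macrophage library 3 was below monocyte library 4 (log2 fold change 1.02, SE 0.25, adjusted p = 0.00264). H2aw was at 11.9, 10.3, 12.6, 9.40 and 10.3 CPM in control macrophages, all below the 5 control monocytes, as for 10.8% of genes (log2 fold change -0.68, SE 0.14, adjusted p = 0.000479). H1f2 was higher by 0.67 (SE 0.25, adjusted p = 0.0335). The H1f2 call was lost without macrophage control 1, 2 or 4 (edgeR adjusted p = 0.125, 0.0768 and 0.0589) or monocyte control 1, 2, 3 or 5 (0.0828, 0.0744, 0.0780 and 0.0717). With the neighbouring pairs as a block, H1f2 passed (adjusted p = 0.000357 by limma-voom and 7.14e-05 by edgeR). H1f5 did not pass (log2 fold change 1.13, SE 0.46, adjusted p = 0.0516), but passed with the neighbouring pairs as a block (adjusted p = 0.0049 by limma-voom and 0.0149 by edgeR).

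In treated tumours 5 of the 11 genes were called, against 53.9% of all genes, and 6 of 11 had an unadjusted p under 0.05, against 58.6%. H2bc4 (1.68, SE 0.26, adjusted p = 2.17e-05), H1f2 (0.75, SE 0.25, adjusted p = 0.0149), H1f3 (1.54, SE 0.54, adjusted p = 0.02002) and H1f5 (1.48, SE 0.62, adjusted p = 0.0495) were higher in macrophages, as 28.2% of genes were. H2aw (-0.74, SE 0.14, adjusted p = 0.00014) was lower, as 25.7% were. H2bc4 was at 6.11, 6.51, 5.02, 7.26 and 8.61 CPM in treated macrophages, all above the 5 treated monocytes. For H1f2, H1f3 and H2aw the 5 treated macrophage libraries also lay on 1 side of the 5 treated monocyte libraries, which held for 25% of genes upward and 22% downward. The H1f5 call was lost in 12 of 20 edgeR fits without 1 library, each adjusted p between 0.0509 and 0.105: those without macrophage control 2 or 5, treated macrophage 1, 2, 3 or 5, monocyte control 1 or 3, or treated monocyte 1, 2, 3 or 4. It was also lost with DESeq2 (adjusted p = 0.0827), limma-voom (0.0551), DESeq2 size factors in edgeR (0.0524) and no filter on low counts (0.0727). With the block, H1f5 passed (adjusted p = 0.00912 by limma-voom and 0.0317 by edgeR). H3c14, at a log2 fold change of -0.76 in treated macrophages (SE 0.33, adjusted p = 0.0593), passed with the block (adjusted p = 0.0171 by limma-voom and 0.0147 by edgeR) and without treated monocyte 3 (adjusted p = 0.0323 by edgeR).

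The 57 genes below the count level were rare in every group but not equally so. Their summed level was 3.80 ± 0.979 CPM in control macrophages, 2.58 ± 0.552 in treated macrophages, 2.06 ± 0.828 in control monocytes and 1.49 ± 0.402 in treated monocytes (SD, n = 5). The ranges of control and treated libraries overlapped in both cell types, and those of treated macrophages (1.97 to 3.46 CPM) and treated monocytes (0.936 to 2.02 CPM) met only at their ends. The 12 kept genes together were at 61.0 ± 12.3, 51.0 ± 7.26, 51.2 ± 12.4 and 46.3 ± 3.28 CPM in the same order, and these ranges overlapped between all groups. By class, the summed H1 genes had the lowest mean in treated monocytes, at 13.8 ± 2.67 CPM, against 33.7 ± 10.7 in control macrophages. H1f2 made up most of the H1 sum. The summed H2A genes had their highest mean in treated monocytes, at 23.7 ± 2.31 CPM against 11.8 ± 1.27 in control macrophages, and H2aw made up most of them.

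Genes of DNA replication and mitosis were called in greater numbers than the histone genes. They were also more abundant. In control monocytes the mean log2 CPM was 4.05 for DNA replication, 3.95 for G2 and mitosis and 0.31 for the 12 kept histone genes. A call depends on the count level, so the numbers called cannot be compared directly. Of 30 DNA replication genes (helicase, polymerase and origin factors), 30 were higher in macrophages in control tumours and 30 in treated tumours, with medians of 1.597 and 2.196 log2. Of 22 genes of G2 and mitosis, 20 and 22 were. Among all genes tested, 24% and 28.2% were higher in macrophages. For the 11 histone genes the corresponding medians were 0.10 and 0.31. After anti-PD-L1, 21 of 30 DNA replication genes fell in monocytes (median -1.04) and 21 of 22 genes of G2 and mitosis did (median -2.25), against 15.4% of all genes. In macrophages 0 of either list was called (medians -0.31 and -0.66), against 4.65% of all genes. With so few genes called there, the counts of 0 say little particular to these lists. Control monocytes varied widely in both lists. The summed DNA replication level was 378 to 1016 CPM in control and 378 to 458 CPM in treated monocytes. For G2 and mitosis it was 110 to 942 and 91.7 to 279 CPM. Monocyte control 5 was the lowest control in both lists. The proliferation marker Mki67 fell by 1.35 on the log2 scale in monocytes (SE 0.32, adjusted p = 0.00707), the replication helicase gene Mcm5 by 1.10 (SE 0.23, adjusted p = 0.00485), and the S-phase cyclin gene Ccne2 by 0.65 (SE 0.21, adjusted p = 0.0318).

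In monocytes, genes of histone chaperones and import were called more often after treatment than genes of histone mRNA synthesis and processing. Slbp, which encodes the stem-loop binding protein, was at 37.8 ± 3.09 CPM in control and 42.97 ± 1.82 CPM in treated monocytes (SD, n = 5) and was not called (log2 fold change 0.19, SE 0.08, adjusted p = 0.0868). Npat, the co-activator of histone gene transcription at histone locus bodies, was not called in either cell type and was higher in macrophages (0.53, SE 0.12, adjusted p = 0.000952 in control tumours and 0.62, SE 0.12, adjusted p = 0.000302 in treated ones). Of 13 genes of histone mRNA synthesis and processing, 2 were called in monocytes after treatment, against 25.3% of all genes. Lsm11, part of the U7 particle, fell by 0.50 and Casp8ap2, a histone locus body protein, rose by 0.31. In macrophages 1 of the 13 was called, the exonuclease gene Eri1, at -0.26, against 4.65% of all genes. Of 15 genes of histone chaperones and import, 7 fell and 1 rose in monocytes, against 15.4% and 9.92% of all genes. Chaf1a, a subunit of the chromatin assembly factor CAF-1, was at -1.36 and Asf1b, which hands over H3 and H4, at -1.35. In macrophages 0 of these 15 were called, against 4.65% of all genes.

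Replacement histone genes were rarely called after treatment. Of 11, only Cenpa, the centromeric H3, was called in monocytes, at a log2 fold change of -0.82 (adjusted p = 0.00476), against 25.3% of all genes. In macrophages 0 of the 11 were called, against 4.65% of all genes. The lowest log2 fold changes in the list, -1.58 in monocytes and -2.25 in macrophages, were not called. H1f0, the replacement linker histone of non-dividing cells, was at 120 ± 55.5 CPM in control and 82.0 ± 2.62 CPM in treated monocytes (log2 fold change -0.55, SE 0.21, adjusted p = 0.0553). H2az1, H3f3a and H3f3b were not called in either cell type after treatment. Between cell types, H2ax, the variant phosphorylated at DNA breaks, was higher in macrophages by 1.37 in control (adjusted p = 2.02e-06) and 1.26 in treated tumours (adjusted p = 7.21e-06). H3f3b differed by -0.92 (adjusted p = 1.18e-06) and -0.52 (adjusted p = 0.000762).

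Fibroblast marker genes moved with treatment beside the histone genes. All 19 fibroblast markers were lower in treated libraries, 12 of them called in monocytes and 10 in macrophages, and their summed level ranged from 7311 to 12838 CPM in control and from 4287 to 7315 CPM in treated monocytes. In macrophages it ranged from 1700 to 6192 CPM in control and 1002 to 2172 CPM in treated libraries, and none of the 19 was at 0 in any library. The mean log2 CPM of the 19 markers did not separate the groups. Monocyte control 5 (3.47) lay below treated monocytes 3 and 5 (3.80 and 3.99). Macrophage control 4 (1.92) lay below treated macrophages 1 and 2 (2.16 and 3.36). The summed level did not follow this mean. Treated monocyte 1 had the lowest mean of all monocyte libraries (1.85) but the highest sum of the treated monocyte libraries (7315 CPM). Col3a1, a collagen gene of fibroblasts, fell by 2.92 in monocytes (SE 0.84, adjusted p = 0.0179) and 3.18 in macrophages (SE 0.85, adjusted p = 0.0456) on the log2 scale. With the mean marker level as a covariate, 0 of 11 histone genes were called in monocytes, but so were only 0.0195% of all genes. The median of the 11 was -0.21, H1f5 was at -1.27 and H2aw, at 0.53, kept its size. Without the 6 control libraries highest in these markers 0 were called as well, against 0.536% of all genes, with a median of -0.11. In that fit H4c9 was at -0.20, H2bc4 at -0.03, H1f3 at -1.42, H2bc6 at 1.91 and H2aw at 0.45. With so few genes called in all, the 2 counts of 0 say nothing particular to histone genes. In the same 2 fits, 0 of the 30 DNA replication genes were called in monocytes. Their median was -0.73 with the covariate and -0.15 without the 6 libraries. For the genes of G2 and mitosis the medians were -1.43 and -0.73. H1f5 did not pass the filter on low counts in the fit with fewer libraries. The part of fibroblast RNA in the histone differences was not tested.

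Libraries with neighbouring sample numbers, 1 macrophage and 1 monocyte library each, shared their histone levels for some genes. The labels do not say that neighbours came from 1 tumour. After removing group means, H1f2 in macrophages followed H1f2 in the neighbouring monocyte library over 10 pairs (Pearson r = 0.82, exact permutation p = 0.00271, adjusted over 12 genes 0.0196; Spearman rho = 0.73, exact permutation p = 0.0167, adjusted 0.0633). Without the 2 pairs farthest from the median, r was 0.48, so this relation rested on them. The relation for H4c9 was r = 0.83 (exact permutation p = 0.00944, adjusted 0.0378) and rho = 0.87 (exact permutation p = 0.00208, adjusted 0.0192), with r = 0.72 without the 2 farthest pairs. For H3c14 it was r = 0.80 (exact permutation p = 0.00326, adjusted 0.0196) and rho = 0.87 (exact permutation p = 0.00319, adjusted 0.0192), with r = 0.75 without them. The other 9 genes did not pass, and H2bc4 had r = 0.09. Over the 15476 genes that met the count level the median r was 0.56, so the 3 histone genes were not set apart by sharing levels as such. The highest control libraries, macrophage control 1 and monocyte control 4, are neighbours, and 5 of the 12 genes had their control maximum in both: H1f2, H1f3, H1f5, H2bc4 and H4c9. Without these 2 libraries, where H1f5 did not pass the filter on low counts, only H2aw was called in monocytes (log2 fold change 0.47, adjusted p = 0.0335), H4c9 was at -0.63 (adjusted p = 0.109), H1f3 at -1.25 (adjusted p = 0.0868) and H2bc4 at -0.67 (adjusted p = 0.0542).

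**Figure D4:**
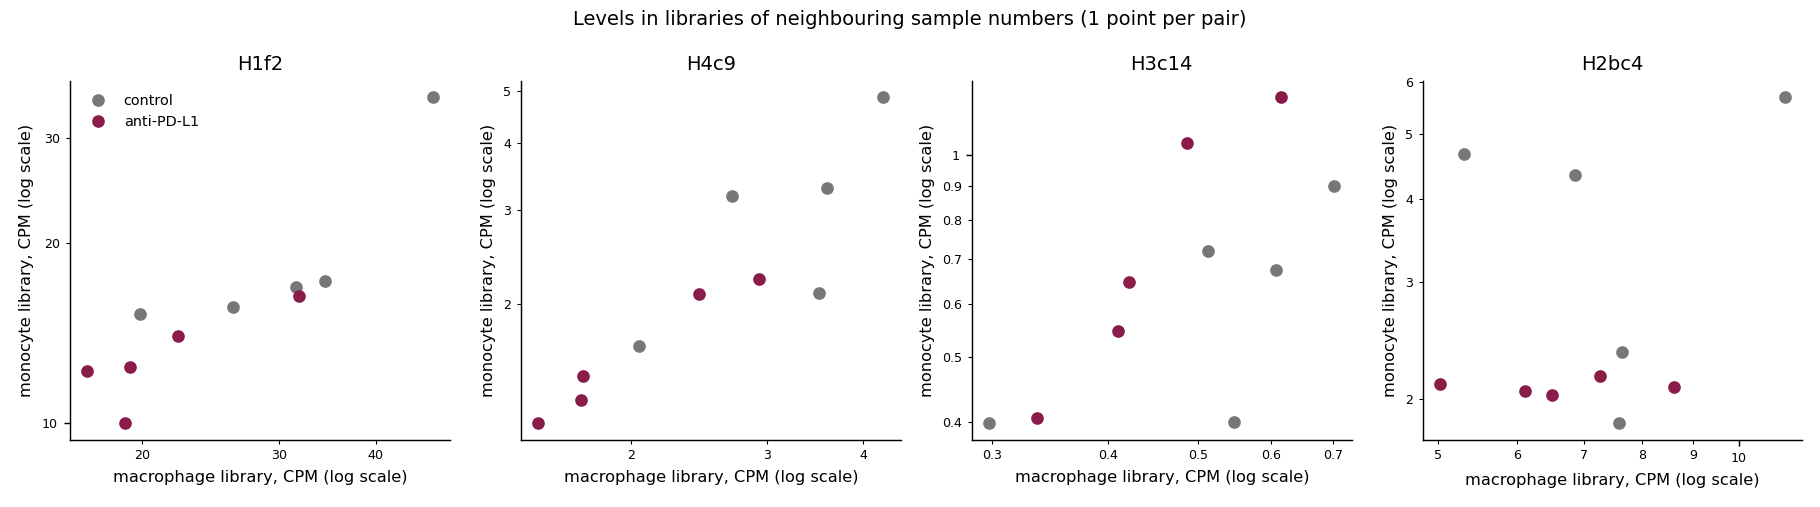
Each point is a pair of libraries with neighbouring sample numbers, with the level in the macrophage library on the x axis and in the monocyte library on the y axis (CPM, log scales), grey for control and dark red for anti-PD-L1. H1f2, H4c9 and H3c14 rise together, with r of 0.82, 0.83 and 0.80 after group means were removed, and H2bc4 does not, with r of 0.09.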

How the data were processed

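Per the labels' protocols, 20 RNA-seq libraries of sorted macrophages and monocytes were made with a stranded total RNA kit, and reads were aligned with GSNAP to GRCm38, per the submitters' processing notes. The counting tool, its annotation and its use of strand were not stated. The deposited counts are uniquely aligned reads per gene model, per the file headers. The deposited RPKM values, adjusted by the authors' size factors per the file headers, were used only to order genes per length and to infer model lengths. Those lengths were scaled on 539 genes with 1 GENCODE transcript, 39.5% of which then lay within 2% of that transcript.

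Members were matched by Entrez number through RefSeq. The members and gene lists were chosen with earlier results of these data known. Counts were filtered with filterByExpr (15390 genes left), scaled by TMM and fitted with edgeR 4.0.16 (quasi-likelihood, 4 group means, all 20 libraries) in R 4.3.3, after a test on simulated data. Adjusted p-values are Benjamini-Hochberg over all genes tested. Genes named with values were, per histone class, the 2 highest in CPM and up to 2 called in monocytes with the smallest p, plus preset reference genes. A floor of 3 counts equals at most 0.105 CPM, which covers counting error only. Replicates of a group were not copies (chi-square per degree of freedom at least 20.4).

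Alternatives were DESeq2 1.42.0, limma-voom (limma 3.58.1), other size factors and filters, 2 groups only, left-out libraries and a replicate block of neighbouring sample numbers. In 10 of 10 pairs of neighbours, each a macrophage and a monocyte library, deviations from the group means correlated (r = 0.30 to 0.76 over 11159 genes), best with the neighbour. Sequences come from GENCODE vM21 transcripts and RefSeq promoters.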

Additional observations from a re-analysis of the deposited data

Results flagged for a closer look

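Groups of 5 libraries were checked for a library that stood apart, meaning a gap to its nearest neighbour above 0.71 of the group's range, over 56 groups (the 12 histone genes and 2 sums in each of the 4 groups). Chance flags about 1 in 20 such groups, and 3 were found. H1f2 in monocyte control 4 was at 35.2 CPM, against 15.25 to 17.3 CPM in the other 4 control monocytes. The 12 kept genes together were at 72.7 CPM in the same library, against 42.6 to 50.8 CPM in the others. H1f5 in macrophage control 1 was at 0.839 CPM, against 0.259 to 0.413 CPM in the other 4 control macrophages. The libraries macrophage control 1 and monocyte control 4 carry neighbouring sample numbers.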

How the results depend on the processing

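The count of histone genes called after anti-PD-L1 in monocytes, 5 of 11 with edgeR, was the result that moved most. The share of all genes called was 25.3% there. The count was 2 of 11 with limma-voom (18.1% of all genes), 6 of 11 with DESeq2 (28.2%), 1 of 7 with the 2 monocyte groups only (13.9%) and 8 of 62 with no filter on low counts (13.5%). It was 0 of 11 with the fibroblast covariate (0.0195%), 0 without the 6 controls with the most fibroblast marker RNA (0.536%), and 1 of 11 without macrophage control 1 and monocyte control 4 (18.7%). The last 3 fits were chosen after seeing the data. The replicate block of neighbouring sample numbers, fitted in limma-voom, gave 3 of 11 (21.4%), against 2 with limma-voom and no block, and both blocks left the other counts within 1.5 times those of edgeR without a block. An edgeR fit with the pairs as a fixed term, also chosen after seeing the data, gave 0 for the difference between effects and 4 and 6 between cell types in control and treated tumours. Leaving out 1 library gave 1 to 6, with 1 without monocyte control 4, 2 without monocyte control 3 or treated monocyte 4, and 3 without monocyte control 1 or treated monocyte 2. In macrophages the count was 0 with edgeR (4.65% of all genes), 1 with DESeq2 (12.2%), and 0 to 1 without 1 library. Between cell types it was 3 of 11 in control tumours (44.1%) and 7 of 62 with no filter on low counts (25.5%), and 5 of 11 in treated tumours (53.9%) and 3 of 7 with those 2 groups only (63.5%). The cause of these shifts was not tested. For single genes, 1565 of 1650 alternative values kept their direction or stayed uncalled, 61 lost a call, 24 gained one, and a called value changed sign in 0. Of those that stayed uncalled, 65 had the opposite sign. H1f5, H1f3 and H4c4 had fewer than 10 counts in every treated monocyte library, which limits their precision.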

Other observations

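A few histone genes too rare for the filter were also sparse in treated monocytes. H3c3, an H3 gene of the Hist1 cluster, had 26 counts in the 5 control macrophage libraries together, 18 in treated macrophages, 14 in control monocytes and 0 in treated monocytes. H2ac15, an H2A gene, had 18, 12, 9 and 0 counts in the same order, and H2bc11, an H2B gene, had 39, 9, 17 and 1. With no filter on low counts, edgeR called these 3 lower in treated than in control monocytes (adjusted p = 0.0207, 0.0466 and 0.0444). That fit called 8 of 62 histone genes, against 13.5% of all genes, a share near this background. In their transcripts 47.0%, 57.0% and 59.4% of 50-base windows also occur in other genes, so their counts are uncertain. The 3 genes were chosen after their values were seen, and a count of 0 over 5 libraries allows up to 3 counts.

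Counts of 4 other rare genes came mostly from macrophages. In control tumours H2bc8 had 43 counts in macrophages and 10 in monocytes, H2ac13 had 24 and 4, H2bc12 had 19 and 2, and H4c6 had 18 and 1. With no filter, edgeR called these 4 higher in control macrophages than in control monocytes (adjusted p = 0.0229, 0.0163, 0.0194 and 0.0191). That fit called 7 of 62 histone genes, against 25.5% of all genes, a share below this background. Of their 50-base windows 49.7%, 90.1%, 74.2% and 39.5% occur in other genes as well. They too were chosen after their values were seen.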
